A study of Arabidopsis thaliana with 17 samples.

Results

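The 10 genes described here are the 7 cytokinin oxidase genes CKX1 to CKX7 and 3 genes of cytokinin synthesis, IPT3, CYP735A1 and CYP735A2, taken by locus identifier from 37336 annotated features. They were chosen with values of the bamboo and Col-0-b roots described here already known, and each had a row in both deposited tables. Cytokinins are adenine-derived hormones whose level in a root is set by synthesis and by breakdown. Isopentenyltransferases (IPT) make the first cytokinin nucleotides, the cytochromes P450 CYP735A1 and CYP735A2 hydroxylate them to the trans-zeatin type, and cytokinin oxidases (CKX) destroy the hormone by cutting off its side chain. In Arabidopsis roots cytokinin is known for restricting the size of the meristem and the start of lateral roots, and oxidase genes are themselves among the targets of cytokinin signalling.

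The levels are those of whole roots of 14-day-old Arabidopsis thaliana grown on sucrose-supplemented MS/2 agar and labelled as mock treated. Roots labelled bamboo (2 libraries, replicates 2 and 3), described as mutant for the long non-coding RNA BAMBOO, are set beside 2 wild-type sets of the accession Col-0. The set named Col-0 (3 libraries) came in a separate table, and the set named Col-0-b (3 libraries) came in the table of bamboo. The study's title names BAMBOO as a decoy that keeps NF-YA2, a subunit of the CCAAT-binding factor NF-Y, off promoters. The sources used here do not give the bamboo allele or the number of lines, and BAMBOO's own transcript was not analysed here. The columns of Col-0-b are headed only as wild type, and were assigned to that set because they stand with bamboo.

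Depth ran from 13637179 reads in Col-0 replicate 3 to 24333119 reads in bamboo replicate 3. Libraries of the separate tables stood apart: the first principal component of the 8 libraries held 70.8% of the variance and split bamboo and Col-0-b (-28.1 to -21.6) from Col-0 (42.3 to 45.0). Col-0 replicates 1 and 3 lay at the ends of the second (27.6 and -28.1, with 12.7% of the variance), so that Col-0 was the most uneven group. The ribosomal RNA gene AT3G41768 had 701 and 1967 CPM (reads per 1000000 reads of the library) in bamboo, 0 to 0.286 CPM in Col-0, and 1621 to 5436 CPM in Col-0-b, and its part in any difference was not tested. Markers of root hair (EXPA7, COBL9), endodermis (CASP1, SCR) and xylem (VND7, XCP1, IRX3) were present in each library. The 5 shoot markers summed to 41.4 to 45.4 CPM in bamboo, 19.2 to 26 CPM in Col-0 and 29.4 to 83.8 CPM in Col-0-b, where replicate 1 was the highest.

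CKX4 was already known to be higher in bamboo in these same libraries, so the values of bamboo against Col-0-b are a description and not new evidence. They are given as the authors' normalized counts, in which the reads of every library were scaled by its own size factor. Each log2 fold change is that of bamboo over Col-0-b, taken on the scale log2(normalized count + 1), which understates changes of low genes.

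CKX4 (AT4G29740), an oxidase whose promoter is known to be active in the root cap, had normalized counts of 880 and 816 in bamboo replicates 2 and 3, against 511, 593 and 512 in Col-0-b replicates 1 to 3. The genotypes did not overlap, and the lowest bamboo library stood clear of the highest Col-0-b library. The 2 bamboo libraries averaged 848 ± 45.1 and the 3 Col-0-b libraries 539 ± 47 (SD), a 1.58-fold difference or 0.66 on the log2 scale (SE 0.09). CKX4 was the 1 gene of the 10 with a limma adjusted p under 0.05 over all features tested (0.0181), a threshold that 0.133% of the 20274 tested features passed (0.0691% higher and 0.0641% lower in bamboo). The adjusted p was 0.143 without Col-0-b replicate 1 and 0.0701 without Col-0-b replicate 3, while the log2 fold change stayed between 0.60 and 0.73 when any library was left out. In whole roots, fewer cells expressing a gene and less RNA per cell cannot be told apart.

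CKX2 (AT2G19500), a secreted oxidase, was the next in size of difference. It had normalized counts of 445 and 308 in bamboo replicates 2 and 3, against 314, 299 and 258 in Col-0-b replicates 1 to 3. Only bamboo replicate 2 stood above the Col-0-b libraries, and bamboo replicate 3 lay within their range. The log2 fold change was 0.36 (SE 0.15) and did not pass the threshold (limma adjusted p = 0.272). It rested on bamboo replicate 2: the value was 0.09 without that library, and 0.62 without bamboo replicate 3. Each of these fits leaves 1 bamboo library, so only the size of the difference is given.

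The other oxidases overlapped between the genotypes or were hardly detected. CKX5 (AT1G75450), which is known from the procambium of the root meristem, had normalized counts of 256 and 218 in bamboo, against 222, 186 and 255 in Col-0-b (log2 fold change 0.11, SE 0.14). CKX1 (AT2G41510) had 62.4 and 67.8 in bamboo, against 51, 49.3 and 74 in Col-0-b (0.19, SE 0.22). CKX3 (AT5G56970) had 66.2 and 58.5 in bamboo, against 51, 76.4 and 70 in Col-0-b (-0.06, SE 0.21). The bamboo values of CKX1 and CKX3 fell inside the Col-0-b range, and those of CKX5 overlapped it. CKX7 (AT5G21482), the cytosolic member of the family, had 68 and 66.9 in bamboo, against 78, 53 and 60.8 in Col-0-b (0.10, SE 0.21). Small as they were, these differences changed sign without Col-0-b replicate 2 for CKX3 (0.06), CKX5 (-0.01) and CKX7 (-0.03), without bamboo replicate 3 for CKX3 (0.03) and without bamboo replicate 2 for CKX5 (-0.01). CKX5 overlaps the ubiquitin-conjugating enzyme gene UBC16 in the annotation, which had 338 reads in each bamboo library and 291, 250 and 243 reads in Col-0-b. In Col-0 replicates 1 to 3 UBC16 had 572, 605 and 325 reads, and its part in the level of CKX5 was not tested. CKX1 shares 279 bases with AT2G41505, which had 57 and 40 reads in bamboo and 37, 29 and 28 reads in Col-0-b. In Col-0 replicates 1 to 3 AT2G41505 had 22, 38 and 57 reads. CKX1 also shares 2057 bases with AT2G41515, which had no read in any library. The part of these genes in the level of CKX1 was not tested. CKX6 (AT3G63440) was at the edge of detection, with 2 and 0 reads in bamboo and 1, 0 and 0 reads in Col-0-b, all below the floor of 3 reads. It did not reach the minimum of 10 normalized counts in any of these libraries, so it was not tested. It shares most of its span with the overlapping non-coding gene AT3G63445 in the reference annotation, which had 51 to 60 reads in bamboo and 38 to 45 in Col-0-b.

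**Figure D1:**
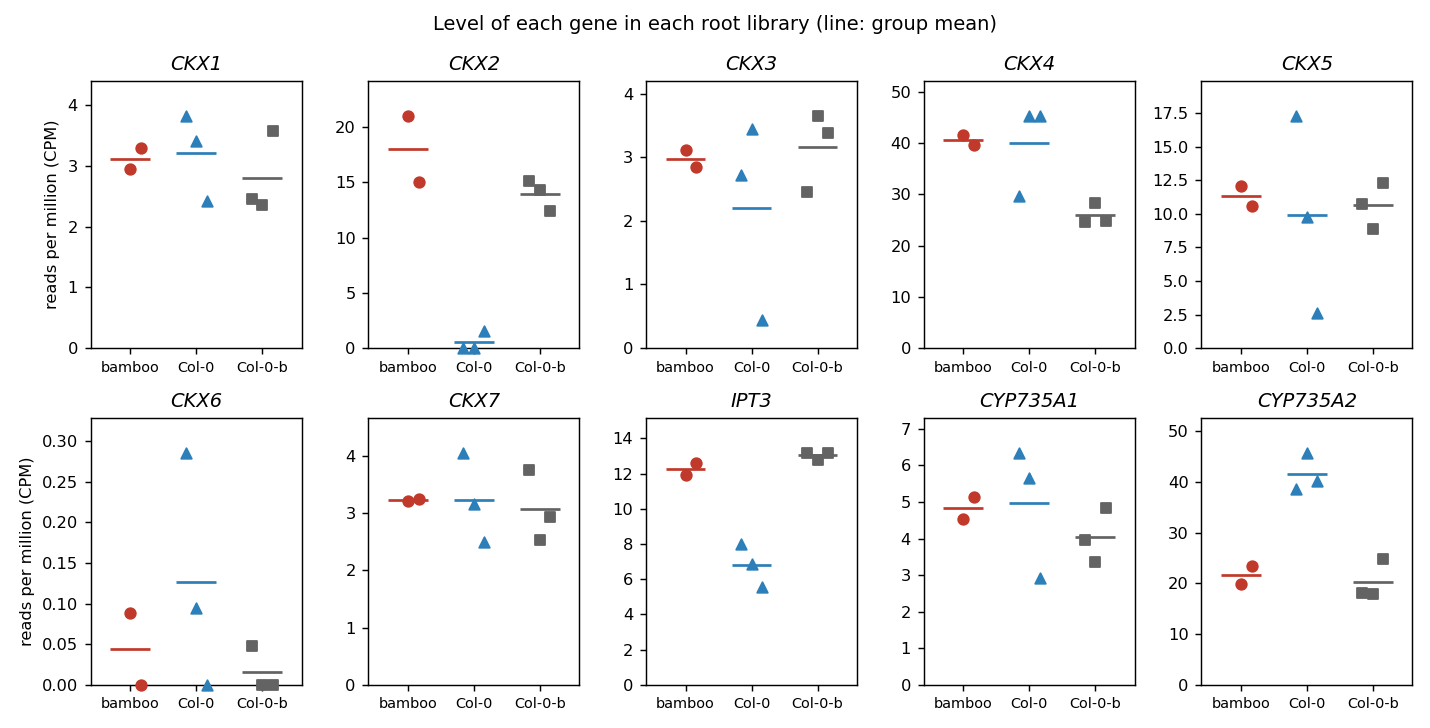
Level of each of the 10 genes in CPM (linear axis from 0, scaled per gene) in bamboo (red circles), Col-0 (blue triangles) and Col-0-b (grey squares); each point is a library and each line a group mean. CKX4 in bamboo (39.6 and 41.5 CPM) lies inside the range of Col-0 (29.6 to 45.3) and above Col-0-b (24.6 to 28.4), and CKX2 is at or near 0 in Col-0.

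Among the synthesis genes, IPT3 (AT3G63110), a nitrate-responsive isopentenyltransferase of the phloem, had normalized counts of 253 and 259 in bamboo, against 274, 267 and 274 in Col-0-b. The genotypes did not overlap, with bamboo lower, but the gap was small: on the log2 scale it was -0.09 (SE 0.10, adjusted p = 0.707 by limma). Together with CKX4, IPT3 made 2 of the 9 tested genes whose libraries did not overlap, where 34.6% of all tested features showed that. Of 3 phloem markers, SUC2 was lower in bamboo (log2 fold change -0.53, adjusted p = 0.023), SEOR1 had a value of -0.11 and APL of 0.07; the list summed to 127 and 146 CPM in the bamboo libraries, against 163 to 179 CPM in those of Col-0-b. Its part in the level of IPT3 was not tested.

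CYP735A1 (AT5G38450) had normalized counts of 96 and 106 in bamboo, against 82, 70.3 and 100 in Col-0-b (log2 fold change 0.27, SE 0.18). CYP735A2 (AT1G67110), the more abundant of the pair per kilobase, had 422 and 486 in bamboo, against 377, 375 and 517 in Col-0-b (0.12, SE 0.14). For each of them the highest Col-0-b library, replicate 3, lay within or above the bamboo values. The reads of IPT3, CYP735A1 and CYP735A2 summed to 811 ± 56.5 normalized counts in bamboo and 779 ± 98 in Col-0-b (SD, n = 2 and 3). The 7 oxidases summed to 1657 ± 172 in bamboo and 1238 ± 16.8 in Col-0-b. Without CKX2 and CKX4 the 5 remaining oxidases summed to 433 ± 31 in bamboo and 409 ± 47.6 in Col-0-b, so most of the difference in summed oxidase reads lay in CKX4 and CKX2.

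The levels can also be set beside Col-0. Here all values are CPM, reads scaled to the library total in the same way for both tables; no test was made across the tables, because each held its own set of libraries and the set and the table cannot be told apart. In bamboo CKX4 had 41.5 and 39.6 CPM, in Col-0 it had 29.6, 45.2 and 45.3 CPM, and in Col-0-b it had 24.6, 28.4 and 24.7 CPM. Bamboo thus lay inside the range of Col-0, and the mean of bamboo, 40.5 ± 1.35 CPM, was close to that of Col-0, 40 ± 9.05 CPM (SD, n = 2 and 3). Each Col-0 library was above each Col-0-b library, although Col-0 replicate 1 was so by a small margin. The ratio of mean CPM, Col-0 over Col-0-b, was 1.55, beside 1.58 for bamboo over Col-0-b in normalized counts; both ratios share the Col-0-b libraries.

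CKX2 differed most between the wild-type sets. It had 477 and 364 reads in bamboo replicates 2 and 3, 0, 0 and 21 reads in Col-0 replicates 1 to 3, and 314, 243 and 254 reads in Col-0-b replicates 1 to 3. As CPM these were 21 and 15 in bamboo, 0, 0 and 1.54 in Col-0, and 15.1, 14.3 and 12.4 in Col-0-b. The wild-type sets were far apart, and Col-0 replicates 1 and 2 had no read. The mean of Col-0-b was 9.07-fold above Col-0 replicate 3. Against a floor of 3 reads per library, CKX2 was at least 97.5-fold lower in Col-0 replicates 1 and 2 than the Col-0-b mean. A ratio of mean CPM at least as low as that of CKX2 was seen in 0.214% of the 20546 features measured in the wild-type sets. In the reference annotation CKX2 shares 666 bases with the non-coding AT2G00640, which has no row in the tables used here, and 30 bases with RECA2. RECA2 had 268, 228 and 114 reads in Col-0 and 236, 191 and 254 in Col-0-b.

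CYP735A2 and IPT3 also separated the wild-type sets. CYP735A2 had 38.6, 45.8 and 40.1 CPM in Col-0, against 18.2, 17.9 and 24.9 CPM in Col-0-b, and no library overlapped. IPT3 had 8.02, 6.88 and 5.57 CPM in Col-0, against 13.2, 12.8 and 13.2 CPM in Col-0-b, again without overlap and in the other direction. Both make early steps of the hormone: IPT3 the first nucleotide, CYP735A2 its hydroxylation. Bamboo, at 19.9 and 23.5 CPM for CYP735A2 and 11.9 and 12.6 CPM for IPT3, lay with or near Col-0-b for these genes. In all, 4 of the 9 measured genes did not overlap between the wild-type sets, CKX4 and CYP735A2 being higher in Col-0 and CKX2 and IPT3 lower. This share is read against the 52.7% of measured features whose libraries did not overlap between the sets (27.3% higher and 25.4% lower in Col-0). The count of 4 among 9 is thus near the background. A rescaling of the 8 libraries by TMM factors, chosen after seeing the data, kept these 4 directions.

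Within Col-0 the oxidases CKX5 and CKX3 were uneven. CKX5 had 17.3, 9.76 and 2.64 CPM in Col-0 replicates 1 to 3, against 10.7, 8.9 and 12.3 CPM in Col-0-b, and CKX3 had 2.72, 3.44 and 0.44 CPM in Col-0, against 2.46, 3.65 and 3.38 CPM in Col-0-b. Col-0 replicate 3 was the lowest for both, with 36 and 6 reads. CYP735A1 had its lowest value there too (2.93 CPM, against 6.35 and 5.66 in the other Col-0 libraries). Without that replicate the Col-0 mean moved to 13.5 CPM for CKX5, 3.08 CPM for CKX3 and 6 CPM for CYP735A1. CKX1 (2.42 to 3.82 CPM in Col-0 and 2.36 to 3.57 in Col-0-b) and CKX7 (2.49 to 4.06 CPM in Col-0 and 2.53 to 3.76 in Col-0-b) had similar ranges in both sets. CKX6 had 6, 2 and 0 reads in Col-0.

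**Figure D2:**
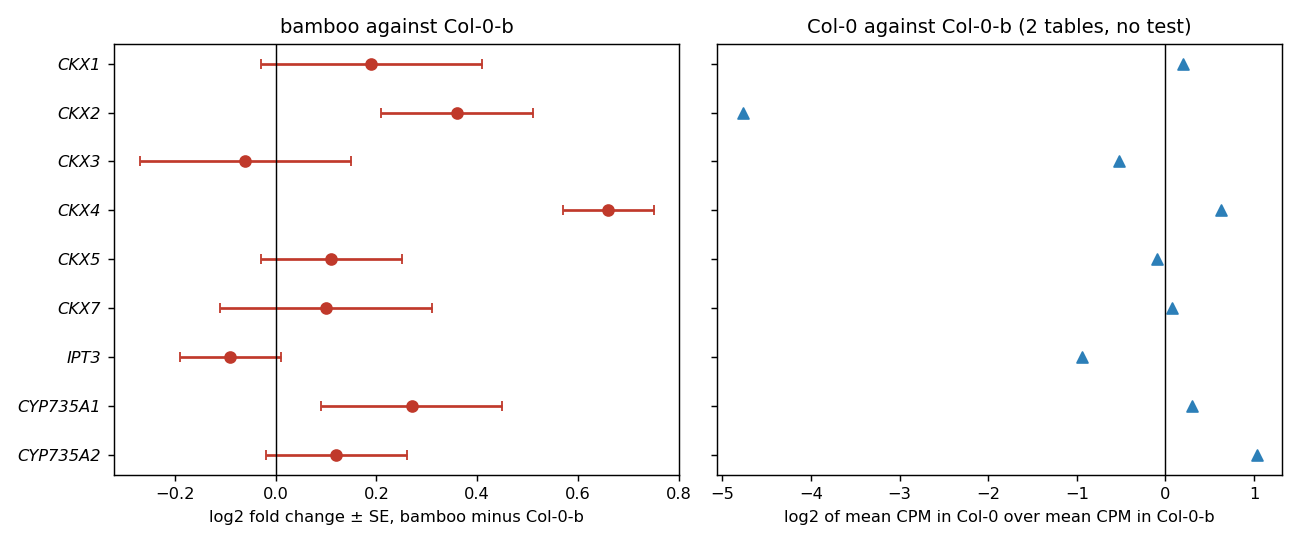
Left, log2 fold change of each tested gene in bamboo minus Col-0-b (points) with its standard error (bars); CKX4 stands at 0.66 and the other genes between -0.09 and 0.36. Right, on a wider axis, log2 of the ratio of mean CPM in Col-0 over Col-0-b, with no test; CKX2 stands at -4.77, CYP735A2 at 1.03, IPT3 at -0.94 and CKX4 at 0.63.

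Levels of different genes were compared as CPM per kilobase of gene span in the reference annotation. The span includes introns, so this order is approximate. CKX4 had the highest mean of the 10 genes in every group, at 12.7 ± 0.422 CPM per kb in bamboo, 12.5 ± 2.83 in Col-0 and 8.1 ± 0.666 in Col-0-b. In bamboo it was followed by IPT3 (7.35), CYP735A2 (5.76) and CKX2 (5.7), and CKX4 stood above IPT3 in both libraries, while CYP735A2 and CKX2 could not be ordered. In Col-0 it was followed by CYP735A2 (11), IPT3 (4.1) and CKX5 (2.53). CYP735A2 was above CKX4 in Col-0 replicate 1 and below it in the other Col-0 libraries. The ranges of IPT3 and CKX5 overlapped, but within each Col-0 library IPT3 was above CKX5. In Col-0-b the order of these means was the same as in bamboo, with IPT3 at 7.84, CYP735A2 at 5.39 and CKX2 at 4.43 CPM per kb. But here IPT3 (7.68 to 7.93) was above CKX4 (7.7 to 8.87) in Col-0-b replicates 1 and 3. CKX5 and CYP735A1 came next in bamboo and Col-0-b, and CKX1, CKX3 and CKX7 lay close together at 0.832 to 1.06 CPM per kb in these groups. The ranges of neighbours among these 3 overlapped in Col-0 and Col-0-b, although CKX1 was above CKX7 within each Col-0 library. CKX6 was last in each group, at most 0.0533 CPM per kb on average.

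The make-up of the oxidase transcripts followed from these levels. CKX4 accounted for 52.8% ± 2.71 of the summed oxidase CPM per kb in bamboo, 70% ± 14.6 in Col-0 and 45.1% ± 3.07 in Col-0-b (SD, n = 2, 3 and 3). The bamboo libraries (50.8% and 54.7%) stood above those of Col-0-b (43.2% to 48.6%). CKX2 held 23.5% ± 3.6 in bamboo, but 0.96% ± 1.66 in Col-0, and 24.7% ± 2.4 in Col-0-b. CKX5 held 12% ± 0.126 in bamboo, 14.2% ± 11.1 in Col-0 and 15.1% ± 2.58 in Col-0-b. The summed reads of the 7 oxidases came to 79.2 ± 6.66 CPM in bamboo, 59.2 ± 5.26 CPM in Col-0 and 59.5 ± 0.513 CPM in Col-0-b, so that the wild-type sets differed in make-up while their sums lay within the spread of Col-0.

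**Figure D3:**
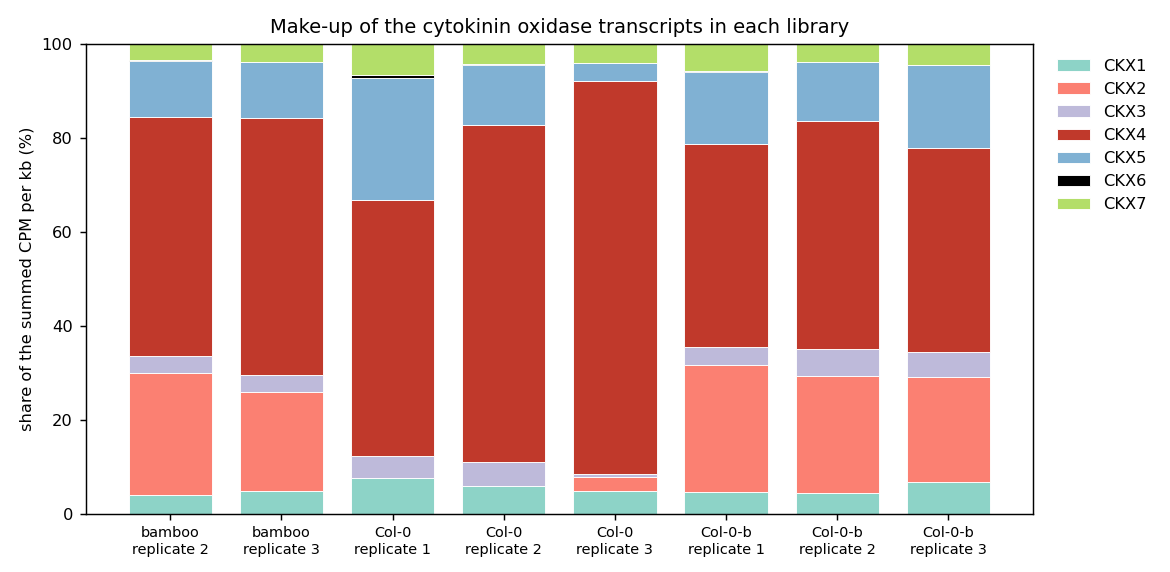
Share of each oxidase in the summed CPM per kilobase of gene span, in percent, 1 bar per library. CKX4 takes 50.8% and 54.7% in bamboo, 54.5% to 83.6% in Col-0 and 43.2% to 48.6% in Col-0-b; the CKX2 segment is missing in Col-0 replicates 1 and 2.

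The rest of the cytokinin pathway was measured through 56 listed genes, of which 49 passed the filter on low values. With limma none of the 49 had an adjusted p under 0.05; edgeR also called none, and DESeq2 called 2. At an unadjusted limma p under 0.05 there were 14, where 16.8% of all tested features passed. Of the 49, 27 had a positive and 22 a negative log2 fold change in bamboo, with a median of 0.03 beside -0.00 over all tested features. The libraries did not overlap for 16 genes with bamboo higher and 9 with bamboo lower, against backgrounds of 17.1% and 17.5%.

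Upstream of the oxidases, 5 of the 8 other isopentenyltransferases were tested. IPT5, with the highest normalized count of them, had a log2 fold change of 0.16 (SE 0.12). IPT7 had 99.1 ± 8.39 normalized counts in bamboo and 146 ± 9.19 in Col-0-b, or -0.55 on the log2 scale (SE 0.14, adjusted p = 0.121 by limma). IPT4, IPT6 and IPT8 had no read in any library. All 9 genes of the LOG family, which is known for releasing the active cytokinin base from its nucleotide, were tested. LOG7, with the highest counts, had 2183 ± 271 normalized counts in bamboo and 1763 ± 224 in Col-0-b (0.31, SE 0.11). LOG2 had the widest difference of the pathway, 43.6 ± 16.1 in bamboo and 10.4 ± 6.01 in Col-0-b (2.09, SE 0.49, adjusted p = 0.105). It was uneven in Col-0 as well, at 6.3, 4.06 and 0.66 CPM, against 0.53, 0.766 and 0.196 CPM in Col-0-b.

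Among the UDP-glycosyltransferases, which inactivate cytokinins by adding glucose, UGT76C2 had a log2 fold change of 0.17 (SE 0.09) and UGT85A1 of -0.39 (SE 0.12). ABCG14, the exporter needed for moving root cytokinin to the shoot, had the highest counts of the 3 transport genes, at 3363 ± 275 normalized counts in bamboo and 4032 ± 204 in Col-0-b (-0.26, SE 0.08, limma adjusted p = 0.156).

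In signalling, the receptor AHK3 had a value of 0.14 (SE 0.07) and the phosphotransfer protein AHP1 of 0.35 (SE 0.11). The type-B regulators, which activate cytokinin targets, had a median of -0.05, with ARR1 at -0.06 (SE 0.07) and ARR10 at -0.23 (SE 0.08). The type-A regulators, targets of the type-B proteins that dampen the response, had positive values in 9 of 9 tested genes with a median of 0.26, and the libraries of 7 did not overlap, where 17.1% of all tested features did so with bamboo higher; this direction was known when the list was drawn up. None passed the threshold: ARR5 had 1157 ± 68.4 normalized counts in bamboo and 867 ± 28 in Col-0-b (0.41, SE 0.08, adjusted p = 0.0633 by limma), and ARR4 a log2 fold change of 0.24 (SE 0.08). In CPM, ARR5 had 56.8 and 53.8 in bamboo, 114, 87.7 and 70.9 in Col-0, and 43.4, 40.6 and 41.2 in Col-0-b, so that each Col-0 library was above each bamboo library. ARR4 went the other way: as CPM it had 195 and 187 in bamboo, 140, 153 and 123 in Col-0, and 162, 174 and 154 in Col-0-b. Between the wild-type sets, 5 of the 9 tested type-A genes did not overlap with Col-0 higher and 1 with Col-0 lower. Of all features measured in these sets, 27.3% did so with Col-0 higher and 25.4% with Col-0 lower. Of the 6 listed response factors, CRF1 to CRF6, 5 had a negative value, among them CRF3 (-0.41, SE 0.11).

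**Figure D4:**
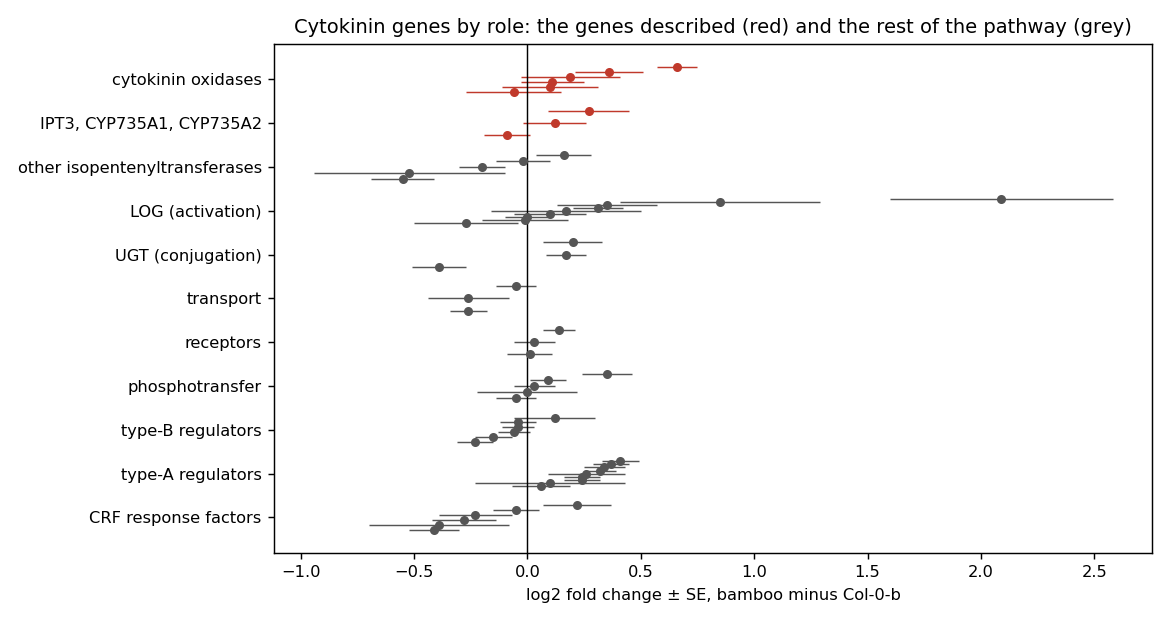
Log2 fold change in bamboo minus Col-0-b with its standard error for each tested gene, grouped by role; red, the oxidases and the 3 synthesis genes described here; grey, the rest of the pathway. CKX4 (0.66) is the 1 gene past the limma threshold, the type-A regulators all lie above 0, and LOG2 (2.09) has the widest difference and a large error.

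The features whose profile over the 5 libraries of bamboo and Col-0-b was closest to CKX4 were found by the root-mean-square difference of log2 values, each centred on its own mean. The nearest was IAA31, an auxin/indole-3-acetic acid family gene (0.0375, against a median of 0.354 over all tested features), with normalized counts of 54.1 and 47.5 in bamboo and 30, 37 and 30.4 in Col-0-b. AT5G45220 (0.0432), XTH11, a xyloglucan endotransglucosylase/hydrolase (0.0473), CRF7, annotated as a cytokinin response factor but not in the list above (0.0515, log2 fold change 0.63), and AT3G56080 (0.0549) followed. None of these 5 passed the limma threshold on its own, with adjusted p-values from 0.0612 to 0.336. The oxidase closest to CKX4 was CKX2 (0.224), at rank 1392 among the tested features, and the other members were farther from it.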

How the data were processed

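RNA-seq levels of 10 genes were described in 8 of the 17 samples of the series. A stranded mRNA kit was used, per the labels. The submitters' processing notes name TAIR10 and the tools STAR 2.7.2a, Subread 1.6.5 with featureCounts, and Trimmomatic. The sources used here do not say whether counting used strand, so the counts of overlapping genes may be too high or too low. For Col-0 the deposited values are raw read counts. The table of bamboo and Col-0-b was deposited by the authors as a signal, namely counts scaled by a size factor. Its values step in whole multiples within a tolerance of 0.01, which gave back the reads for 100% of values; CPM was computed from reads and library totals. Another 6 columns, whose names match no label for certain, were not used.

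Features with at least 10 normalized counts in at least 2 of 5 libraries (20274 of 37336) were fitted with limma 3.58.1 in R 4.3.3 (trended, robust, log2(value + 1), group only), with Benjamini-Hochberg adjustment over all of them at 0.05. Of the 10 genes, 9 passed this filter. P-values measure the spread between these libraries, which may be technical. Other settings, among them edgeR 4.0.16 and DESeq2 1.42.0 on the recovered reads, are in the closing section. Floors of 3 reads cover counting error only. When the limma fit was tested on simulated data with known changes, a larger share of its calls was false than the threshold on the adjusted p allows, so calls close to the threshold are less certain than that p says. Symbols and gene spans came from a RefSeq table of TAIR10.1 (37051 features matched); no coordinates are given because its build differs in name.

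The members and lists were chosen with earlier results of these data known. Named are the 10 genes, NF-YA2, every called pathway gene, the gene with the highest mean normalized count and the gene with the largest difference in each role, the 5 features closest to CKX4 and marker genes. Other genes (RECA2, UBC16, AT2G00640, AT2G41505, AT2G41515, AT3G63445, AT3G41768, IPT4, IPT6 and IPT8) were named after their values were seen.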

Additional observations from a re-analysis of the deposited data

How the results depend on the processing

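For low genes depth is the limit, since the floor of 3 reads lies at 2.54 to 3.7 normalized counts. The counts of 14 features higher and 13 lower in bamboo became 46 and 29 when low values were not filtered, so that more features were tested, and 188 and 115 with DESeq2; other pathway genes called higher, 0 at first, were then 1 and 2. Replicate numbers 2 and 3 are shared by bamboo and Col-0-b, and their differences correlated at 0.08 over features. With a replicate block 513 features were higher and 379 lower, with 5 and 2 pathway genes, and CKX4 stayed the 1 called gene of the 10. In that fit Col-0-b replicate 1 stood alone in its block and added nothing to the contrast, so the spread rested on few libraries. Leaving out 1 library gave 6 to 894 features higher and 4 to 1052 lower, and 0 to 5 pathway genes in each direction; the highest counts came without bamboo replicate 3 and the lowest feature counts without Col-0-b replicate 1. When any 1 library was left out, the log2 fold change ran from 0.09 to 0.62 for CKX2 and -0.23 to 0.06 for CKX3. It ran from 0.60 to 0.73 for CKX4, -0.01 to 0.23 for CKX5 and -0.03 to 0.25 for CKX7. CKX3 was 0.03 without bamboo replicate 3 and 0.06 without Col-0-b replicate 2, CKX5 was -0.01 without bamboo replicate 2 and without Col-0-b replicate 2, and CKX7 was -0.03 without Col-0-b replicate 2. CKX4 was called in all settings except without Col-0-b replicate 1 or 3. The cause of the other changes was not tested. CKX4's share of the oxidases moved by less than the spread between libraries with unscaled reads.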

Other observations

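The absence of CKX2 reads in Col-0 replicates 1 and 2 can be set beside other expressed features. Of 12365 features with at least 200 reads in each Col-0-b library, CKX2 was the 1 feature with 0 reads in both of these Col-0 libraries. With a threshold of 100 reads there were 2 such features. These thresholds were set after the values of CKX2 were seen, and the difference between the sets was not tested.

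In bamboo NF-YA2 had 25.8 and 25.9 CPM, in Col-0 it had 22.8, 19.6 and 14.7 CPM, and in Col-0-b it had 27.4, 27.4 and 24.6 CPM. It overlapped between bamboo and Col-0-b and was lower in each Col-0 library than in each Col-0-b library.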
